A study of Mus musculus with 2 samples.

Results

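Collagens are the main structural proteins of animal extracellular matrix, and their genes were followed in embryonic mouse lung with and without the transcription factors Etv4 and Etv5. Members were the genes whose array annotation gave exactly 1 symbol of the form Col, digits, a, digits, and where a gene had several probe sets the brightest by the mean of both arrays stood for it. This gave 44 collagen genes, read by 46 probe sets, of 19938 genes in all. Col21a1 was not matched and is not analysed here. RNA from E13.5 lungs of Etv4 and Etv5 knockout embryos (a pool of 3 samples, 1 array) was set against RNA from E13.5 wild type lungs (a pool of 3 samples, 1 array). One label calls the knockout conditional (CKO) and others give a double knockout. The labels used here name no Cre driver, deleted part, strain or sex. With 1 array per group there was no replicate, so no test across samples was run and every difference below describes these 2 pools.

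Collagen chains wind around each other in helices of 3 chains, which cells secrete and assemble into fibrils, sheets or filaments. In the lung, fibrillar collagens are made largely by mesenchymal cells, type IV collagen forms the basement membrane sheet under epithelium and endothelium, and cartilage collagens belong to the rings that hold the trachea and large bronchi open. Airway branching is known to depend on the exchange of signals across this matrix, and Etv4 and Etv5 act in the distal epithelium downstream of fibroblast growth factor.

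The deposited values were read as log2 values, with medians over all probe sets of 7.58 on the knockout array and 7.60 on the wild type array. Differences are knockout minus wild type. A gene was called measured when it reached the median of its array on at least 1 array, which held for 11058 genes. Etv4 had 6.96 in the knockout pool and 7.59 in the wild type pool, and Etv5 had 11.28 in the knockout pool and 11.51 in the wild type pool. Both targeted genes were thus lower in the knockout pool, although Etv4 lay under the level limit on both arrays. The difference of Etv5 was -0.23, and -0.24 by its other probe set, so Etv5 did not reach the 1.2-fold size used below. Xist, the RNA that silences an X chromosome in female cells, had 5.74 in the knockout pool and 12.34 in the wild type pool, so the pools differed in sex makeup. Markers of lung tissue were present, with 10 of 10 epithelial, 9 of 10 mesenchymal and 10 of 10 endothelial markers measured. Among 618 measured genes with 2 probe sets, the differences of the pair lay a median of 0.043 and a 90th percentile of 0.18 apart. Both sets were read on the same 2 arrays, so this gap holds no variation between pools, animals or arrays. Fewer cells of a type and less RNA per cell cannot be told apart in such bulk samples.

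The collagen family differed little between the pools. Of the 44 genes, 21 were higher in knockout, 15 were lower and 8 had exactly equal values on both arrays. Over all 19938 genes the same shares were 33.4% higher, 33.2% lower and 33.5% equal. By the brightest probe set, none of the 44 differed by 1.2-fold or more (0.26 on the log2 scale). The targeted gene Etv5 did not reach that size either. Of all genes 2.21% passed that size upward and 1.33% downward. The dimmer probe set of Col6a5 did pass it, at 0.38. At 1.1-fold, 6 of the 44 were higher (9.05% of all genes) and 3 were lower (5.96% of all genes). The 6 were Col6a5, Col4a6, Col20a1, Col9a3, Col10a1 and Col6a6, and the 3 were Col14a1, Col2a1 and Col12a1. The median over the family was 0, as it was over all genes, but with exact ties this common a median of 0 says little.

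Of the 44 collagens 34 counted as measured. Of these, 12 were higher, 14 lower and 8 equal, against 25.6% higher, 47% lower and 27.4% equal over the 11058 measured genes. At 1.1-fold 5 of the 34 were higher and 3 lower, against 5.05% and 7.49% of measured genes, and at 1.2-fold none were, against 1.39% and 1.53%. Col4a6, Col6a5, Col20a1 and Col4a4 reached the limit on the knockout array only, so the first 3 could not have been counted without a positive difference, while Col4a4 was equal on both arrays and lay between the 2 limits. The 10 collagens under the limit on both arrays had values from 6.38 to 7.54 in the knockout pool and from 6.21 to 7.52 in the wild type pool. Their differences ran from -0.084 to 0.16, with 9 higher and 1 lower.

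**Figure D1:**
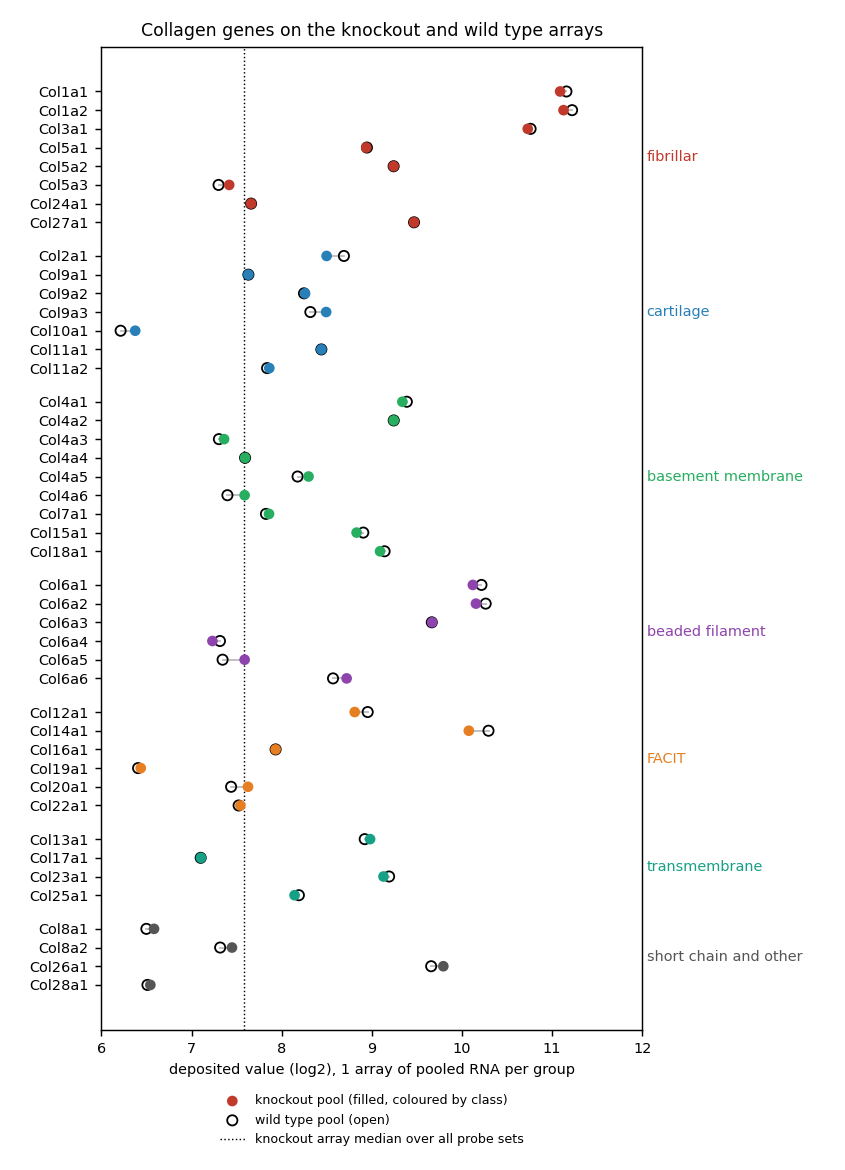
Deposited log2 values of the 44 collagen genes, by structural class, with the knockout pool as filled points and the wild type pool as open points, and the dotted line at the knockout array median of 7.58. Most pairs of points overlap or nearly do, and the widest gaps belong to Col6a5, Col14a1, Col2a1 and Col4a6. Levels of different genes come from different probe sets and are not comparable with each other.

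Bright collagens were lower in knockout. The 6 collagens in the upper tertile of mean level among measured genes (above 9.92) were Col1a1, Col1a2, Col3a1, Col6a1, Col6a2 and Col14a1, and all 6 were lower in knockout, with differences from -0.22 to -0.032. In that tertile 55.1% of all measured genes were lower, 17.9% higher and 27% equal. Of the 16 collagens in the lower tertile (below 8.78), 9 were higher, 2 lower and 5 equal, but 3 of the 9 (Col4a6, Col6a5 and Col20a1) passed the level limit through the knockout array only, so this count supports nothing. Over all measured genes of that tertile the shares were 36.5% higher, 34.9% lower and 28.6% equal. Lower values were thus common among bright genes across the arrays as well as in the collagens. With a loess curve through all probe sets removed, 5 of the bright collagens lay between -0.19 and -0.049, and Col3a1 at -0.0084 was too near 0 to have a direction.

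**Figure D2:**
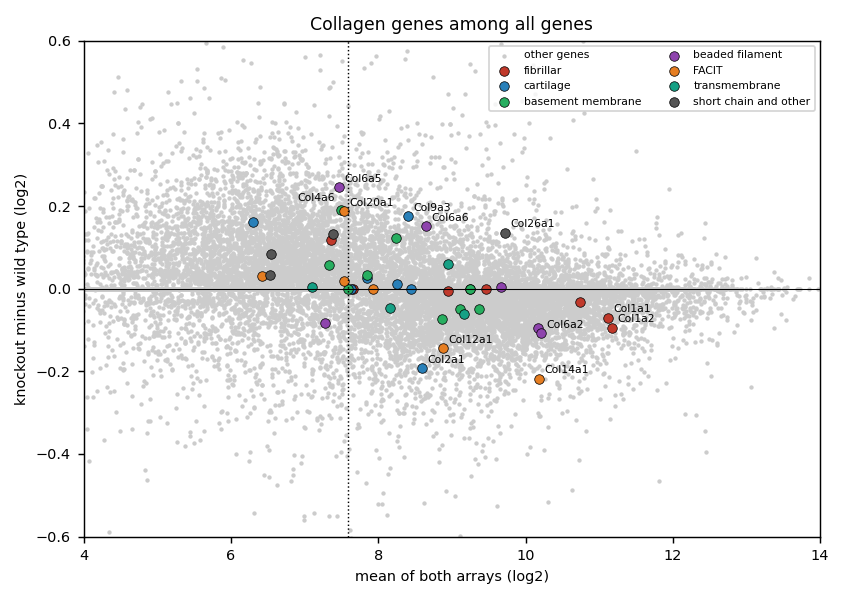
Knockout minus wild type difference (log2) against the mean of both arrays (log2) for collagen genes, coloured by class, and for all other genes in grey, with the dotted line at the mean of both array medians. Genes beyond 0.6 in size or outside the range of levels shown are not drawn. The collagens lie within the grey cloud, the bright ones below 0 and several dim ones above it.

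Fibrillar collagens, which build the tensile fibres of the interstitium, were lower or equal where measured, in the values as deposited. Of 7 measured members 4 were lower, 3 were equal and none was higher, and the median was -0.0067. Over all measured genes 47% were lower, 27.4% equal and 25.6% higher. Those shares stand beside the counts of the other classes below as well. Col1a1 and Col1a2 encode the chains of type I collagen, the main fibre of most connective tissue. Col1a1 had 11.09 in the knockout pool and 11.16 in the wild type pool, a difference of -0.070. Col1a2 had 11.13 in the knockout pool and 11.22 in the wild type pool, a difference of -0.095. The chains of type I collagen thus lay 0.025 apart, less than the usual gap between probe sets of 1 gene.

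Col3a1, whose collagen III is abundant in distensible tissues such as lung and vessel walls, had 10.73 in the knockout pool and 10.76 in the wild type pool. Col5a1 and Col5a2 encode chains of collagen V, which nucleates fibrils and limits their width. Col5a1 had 8.94 in the knockout pool and 8.95 in the wild type pool, and Col5a2 had 9.24 on both arrays. Col24a1 and Col27a1 were also equal, at 7.66 and 9.47, while the dim Col5a3 had 7.42 in the knockout pool and 7.30 in the wild type pool, under the level limit. With equal array medians, quantile or loess scaling the fibrillar class had 4 higher and 3 lower members, because the equal genes and Col5a1 moved above 0. Col1a1 and Col1a2 were lower under all of these scalings, with ranges that include the deposited values of -0.070 to -0.040 and -0.095 to -0.068. Col3a1 ranged from -0.032 to -0.0060, too near 0 for a direction.

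Among the cartilage collagens, Col2a1 and Col9a3 differed in opposite directions. The 6 measured members of the class comprised 3 higher, 1 lower and 2 equal genes, and their median was 0.0061. Of the higher genes, Col9a2 (0.012) and Col11a2 (0.025) were too near 0 to have a direction. Col2a1, the main fibrillar collagen of cartilage, had 8.50 in the knockout pool and 8.69 in the wild type pool, a difference of -0.19 (1.14-fold). Differences as low or lower were found in 3.64% of measured genes. Col9a3, a chain of the collagen IX that decorates cartilage fibrils, had 8.49 in the knockout pool and 8.32 in the wild type pool, a difference of 0.18. The other chains of collagen IX did not share that difference, with 8.26 in the knockout pool and 8.25 in the wild type pool for Col9a2 and 7.63 on both arrays for Col9a1. Col11a1 and Col11a2, chains of the collagen XI inside cartilage fibrils, differed by 0 and 0.025. Col10a1, which marks hypertrophic chondrocytes, had 6.38 in the knockout pool and 6.21 in the wild type pool, under the level limit on both.

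The other cartilage markers were mixed as well. Of 13 listed, 6 were measured, with 2 higher, 2 lower and 2 equal, against 25.6% higher, 47% lower and 27.4% equal over all measured genes. The other 7, Acan, Matn1, Matn3, Comp, Snorc, Chad and Epyc, lay under the level limit on both arrays. The measured genes are thus a weak reading of cartilage. The linear level summed over all 13, those under the level limit included, was 3154 in the knockout pool and 2972 in the wild type pool. Cytl1, a secreted factor of chondrocytes, had 9.52 in the knockout pool and 8.98 in the wild type pool. The higher sum in knockout rests on Cytl1 alone. Cnmd, which encodes the cartilage protein chondromodulin, had 7.37 in the knockout pool and 7.78 in the wild type pool. Cnmd and Col2a1 were therefore lower and Cytl1 and Col9a3 higher, and the part of tracheal cartilage content in these values was not tested.

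In the basement membrane class the highest differences belonged to the X-linked chains. Of 8 measured members 3 were higher, 3 lower and 2 equal, with a median of 0. Col4a1 and Col4a2 encode the chains of the common type IV network. Col4a1 had 9.34 in the knockout pool and 9.39 in the wild type pool, and Col4a2 had 9.24 on both arrays. Col4a5 and Col4a6 encode chains with a more restricted distribution. Col4a5 had 8.30 in the knockout pool and 8.18 in the wild type pool, a difference of 0.12. Col4a6 had 7.59 in the knockout pool and 7.40 in the wild type pool, a difference of 0.19, and it passed the level limit by 0.0049 on the knockout array. Col4a3 and Col4a4, which partner Col4a5 in the networks of kidney glomerulus and lung alveolus, differed by 0.057 and 0, with Col4a3 under the level limit. Both of the measured type IV chains with higher values lie on the X chromosome. Col4a6 could not have been counted without a positive difference, so the pair supports no split by chromosome. The part of the sex makeup of the pools in both values was not tested. Without X-linked genes the class median was -0.025.

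The type IV genes are arranged head to head in pairs, and the start regions of 2 pairs are shown. Col4a5 and Col4a6 both had higher values in knockout, with the limit on Col4a6 given above. Col4a1 and Col4a2 stayed within 0.049 of each other. Sequences are RefSeq promoter windows of GRCm38.p6, from 250 bases before to 50 bases after the start, written 5′ to 3′ on the strand of the gene. Capitals mark matches on either strand to any of 4 short motifs. The first is TATAAA, the element that positions transcription starts in some promoters. Another is CCAAT, an element bound by the factor NF-Y. The motif known as the GC box, bound by Sp1 and its relatives, was searched as GGGCGG. The last is AGGAAG, a core bound by ETS factors of the PEA3 group, to which Etv4 and Etv5 belong. No motif is contained in another, but neighbouring matches can overlap.
Col4a1, chr8:11312777-11313076, minus strand: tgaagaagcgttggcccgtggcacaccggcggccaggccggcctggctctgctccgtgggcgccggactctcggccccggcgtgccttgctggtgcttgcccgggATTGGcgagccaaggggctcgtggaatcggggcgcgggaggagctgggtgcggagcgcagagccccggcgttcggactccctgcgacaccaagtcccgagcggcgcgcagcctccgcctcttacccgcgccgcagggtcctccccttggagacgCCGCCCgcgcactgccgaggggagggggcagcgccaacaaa
Col4a2, chr8:11312555-11312854, plus strand: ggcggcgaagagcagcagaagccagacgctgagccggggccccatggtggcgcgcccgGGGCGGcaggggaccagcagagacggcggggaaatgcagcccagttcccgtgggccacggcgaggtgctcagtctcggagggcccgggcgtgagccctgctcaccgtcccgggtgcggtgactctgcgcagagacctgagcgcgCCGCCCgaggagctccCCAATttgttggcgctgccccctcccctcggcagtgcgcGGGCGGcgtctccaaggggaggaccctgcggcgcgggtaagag
Col4a6, chrX:141474027-141474326, minus strand: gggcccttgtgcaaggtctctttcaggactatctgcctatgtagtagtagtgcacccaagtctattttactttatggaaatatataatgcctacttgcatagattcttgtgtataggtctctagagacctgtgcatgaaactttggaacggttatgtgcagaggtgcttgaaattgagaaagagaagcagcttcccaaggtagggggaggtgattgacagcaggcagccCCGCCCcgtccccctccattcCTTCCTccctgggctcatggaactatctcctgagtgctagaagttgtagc
Col4a5, chrX:141475169-141475468, plus strand: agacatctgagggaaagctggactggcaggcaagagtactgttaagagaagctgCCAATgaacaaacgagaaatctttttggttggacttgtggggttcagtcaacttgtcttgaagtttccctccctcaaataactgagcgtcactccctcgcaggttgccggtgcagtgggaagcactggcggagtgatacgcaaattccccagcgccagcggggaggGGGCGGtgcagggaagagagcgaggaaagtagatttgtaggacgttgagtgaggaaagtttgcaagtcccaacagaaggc
The starts of Col4a1 and Col4a2 lie 21 bases apart and their windows share 78 bases, whereas those of Col4a6 and Col4a5 lie 1343 bases apart with no shared base. Each of the 4 windows holds at least 1 GC box, the Col4a6 window alone holds AGGAAG, and none holds TATAAA.

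The remaining basement membrane collagens differed by small amounts. Col18a1, whose C-terminal fragment is endostatin, had 9.09 in the knockout pool and 9.14 in the wild type pool. Col15a1, a related proteoglycan collagen of vessel and muscle basement membranes, had 8.83 in the knockout pool and 8.91 in the wild type pool. Col7a1, which forms anchoring fibrils beneath stratified epithelia, had 7.86 in the knockout pool and 7.83 in the wild type pool.

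The endothelial markers, from cells that rest on such membranes, had 8 of 10 lower and 2 equal as deposited, with a median of -0.020. Under the other scalings 4 to 5 of 10 were higher, beside 60.7% to 62.6% of all measured genes. Of the epithelial markers 9 of 10 were higher, with a median of 0.15. Both lists were chosen with earlier results of these data known, so the counts are not independent of the data. As deposited, 47% of all measured genes were lower and 25.6% higher, and 55.1% and 17.9% in the upper tertile of level. Summed over all 10 markers of each list, linear levels were 16502 in the knockout pool and 16808 in the wild type pool for endothelium, and 16297 in the knockout pool and 14432 in the wild type pool for epithelium. The part of cell type shares in the basement membrane values was not tested.

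Compared with each other, the fibrillar, cartilage and basement membrane classes had medians of -0.0067, 0.0061 and 0. There is no replicate with which to test the differences between classes. Moving Col2a1, Col11a1 and Col11a2 to the fibrillar class gave medians of -0.0034 for fibrillar and 0.012 for cartilage. Over all members, measured or not, fibrillar genes spanned -0.095 to 0.12, basement membrane genes -0.074 to 0.19 and cartilage genes -0.19 to 0.18.

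**Figure D3:**
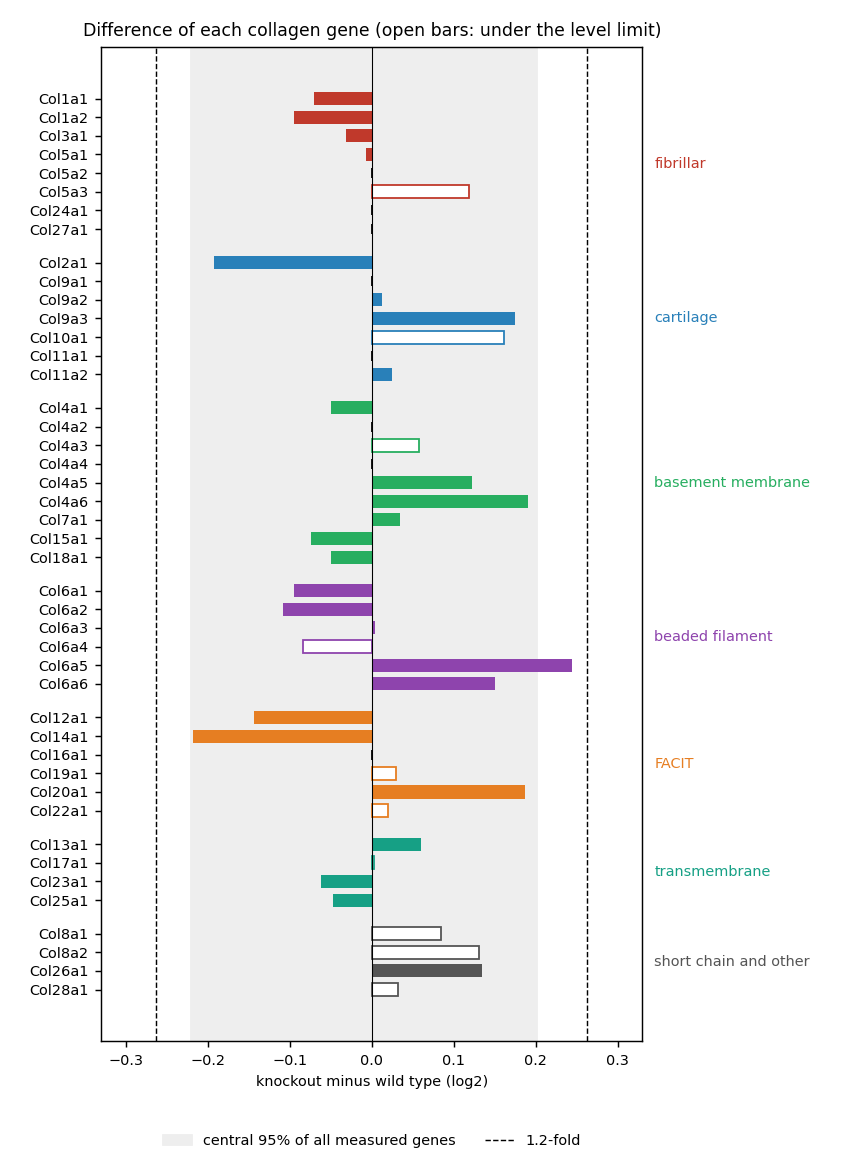
Knockout minus wild type difference (log2) of each of the 44 collagen genes, by class, with open bars for genes under the level limit, short ticks for genes with equal values, dashed lines at 1.2-fold and grey for the central 95% of all measured genes (-0.22 to 0.20). No bar reaches the dashed lines, and Col6a5 alone extends beyond the grey band.

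Collagen VI, the beaded filament collagen that links cells to the interstitial matrix, divided by gene. Col6a1 had 10.12 in the knockout pool and 10.22 in the wild type pool, and Col6a2 had 10.16 in the knockout pool and 10.26 in the wild type pool, differences of -0.096 and -0.11. Col6a3, the long chain that completes the classical trimer, had 9.67 on both arrays, with a difference of 0.0035. The 3 chains of that trimer therefore spanned 0.11, with the neighbouring genes Col6a1 and Col6a2 of chromosome 10 below Col6a3 of chromosome 1.

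The Col6a4, Col6a5 and Col6a6 genes, which encode further chains of collagen VI, lie next to each other on chromosome 9. Col6a5 had 7.59 in the knockout pool and 7.34 in the wild type pool, a difference of 0.24 (1.18-fold), and its other probe set had 7.28 in the knockout pool and 6.91 in the wild type pool, a difference of 0.38. Col6a6 had 8.72 in the knockout pool and 8.57 in the wild type pool, and its dimmer probe set had 7.52 in the knockout pool and 7.34 in the wild type pool, differences of 0.15 and 0.17. These are the 2 collagens read by more than 1 probe set, and the sets of each gene shared their direction. Col6a4 went the other way, with 7.23 in the knockout pool and 7.32 in the wild type pool, both under the level limit. The dimmer Col6a6 set and the brighter Col6a5 set had the same wild type value to all digits deposited. Sharing a value with another set was common on that array (18172 of 35557 probe sets), for which the labels give no reason.

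The start regions of Col6a1 and Col6a2, the pair of collagen VI genes with the lower values, are shown with the same motifs in capitals.
Col6a1, chr10:76725995-76726294, minus strand: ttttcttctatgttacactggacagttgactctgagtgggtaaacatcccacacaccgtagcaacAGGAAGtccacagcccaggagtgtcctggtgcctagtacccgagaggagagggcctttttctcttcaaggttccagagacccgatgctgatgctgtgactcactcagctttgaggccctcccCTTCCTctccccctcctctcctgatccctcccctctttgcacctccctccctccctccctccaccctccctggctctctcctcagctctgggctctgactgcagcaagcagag
Col6a2, chr10:76623355-76623654, minus strand: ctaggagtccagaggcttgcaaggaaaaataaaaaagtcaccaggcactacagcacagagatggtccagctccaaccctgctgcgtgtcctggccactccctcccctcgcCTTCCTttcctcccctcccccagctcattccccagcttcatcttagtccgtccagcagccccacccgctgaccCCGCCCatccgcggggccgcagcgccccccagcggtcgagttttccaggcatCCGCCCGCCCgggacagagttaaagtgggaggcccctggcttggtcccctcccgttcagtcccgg
The Col6a1 window holds 2 matches to AGGAAG and no GC box, and the Col6a2 window holds 1 match to AGGAAG and 3 to GGGCGG. A promoter window was found for 35 of the 44 collagens. AGGAAG was present in 11 of these 35 (31.4%) and in 35.1% of 27025 promoters of the same length, and in 4 of 6 beaded filament, 3 of 6 fibrillar, 2 of 5 cartilage and 2 of 8 basement membrane windows. GGGCGG was present in 22 of 35 (62.9%) and in 35.9% of all. CCAAT was present in 12 of 35 (34.3%) and in 37.9% of all, and TATAAA in 5 of 35 (14.3%) and in 14.2% of all. The matches describe letters in these windows and not binding.

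The FACIT collagens, which sit on the surface of fibrils and have interrupted helices, held the lowest value of the family. Col14a1, which regulates fibril growth and is a marker of matrix fibroblasts, had 10.08 in the knockout pool and 10.29 in the wild type pool. The difference was -0.22 (1.16-fold), and 2.59% of measured genes were as low or lower. Col14a1 was the lowest of the 34 measured collagens and Col2a1 the next. Their small shares come with picking the extremes and mark neither gene as unusual. Col12a1, a related collagen of dense connective tissue, had 8.81 in the knockout pool and 8.95 in the wild type pool, a difference of -0.14. Col16a1 had 7.93 on both arrays. Col20a1 had 7.63 in the knockout pool and 7.44 in the wild type pool, a difference of 0.19, close to the level limit. Col19a1 and Col22a1 were under the limit and differed by 0.030 and 0.019. The median of the 4 measured members was -0.072, and over all 6 it was 0.0097, with 3 higher and 2 lower, so the class has no settled direction.

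Transmembrane collagens, which anchor cells to matrix, and the remaining types differed by 0.14 or less. Col13a1 had 8.98 in the knockout pool and 8.92 in the wild type pool. Col23a1 had 9.13 in the knockout pool and 9.19 in the wild type pool, and Col25a1 had 8.14 in the knockout pool and 8.19 in the wild type pool. Col17a1, the hemidesmosome collagen of basal epithelial cells, was under the limit at 7.10 on both arrays, with a difference of 0.0029. Col26a1 had 9.79 in the knockout pool and 9.66 in the wild type pool, a difference of 0.14, the only measured member of the last group. The collagen VIII genes Col8a1 and Col8a2, which encode short chains of endothelial and corneal networks, and Col28a1 were under the limit, at 0.085, 0.13 and 0.032.

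Genes that modify, process and bind collagen were compared from lists of 5 kinds. The lists were chosen with earlier results of these data known, so their counts are not independent of the data. Of 22 modifying enzymes and chaperones 18 were measured, of which 12 were lower, 2 higher and 4 equal, with a median of -0.041. Lower counts in these lists stand beside the 47% of all measured genes that were lower, or 55.1% in the upper tertile of level, and the median of 0 over measured genes. P4ha2, a catalytic subunit of the prolyl 4-hydroxylase that stabilises the collagen helix, had 7.41 in the knockout pool and 7.80 in the wild type pool. Plod2, the lysyl hydroxylase of collagen telopeptides, had 9.90 in the knockout pool and 10.10 in the wild type pool. P4ha3, another prolyl 4-hydroxylase subunit, and Crtap, part of the prolyl 3-hydroxylation complex, differed by -0.18 and -0.15. P4ha2 passed 1.2-fold, as 1.53% of measured genes did downward, and no member passed it upward.

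Among 13 procollagen proteases, their enhancers and cross-linking enzymes, 7 were measured, with 5 lower and 2 higher and a median of -0.055. Pcolce and Pcolce2 encode proteins that enhance cleavage of procollagen. Pcolce had 11.19 in the knockout pool and 11.45 in the wild type pool, and Pcolce2 had 7.72 in the knockout pool and 8.02 in the wild type pool. Both passed 1.2-fold downward, as 1.53% of measured genes did. The lysyl oxidase relatives Loxl3 and Loxl1 differed by -0.25 and 0.067.

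Fibril-binding proteoglycans and glycoproteins had 2 higher, 3 lower and 4 equal members of 9 measured, with a median of 0. Fmod, which encodes fibromodulin, had 11.07 in the knockout pool and 11.35 in the wild type pool. It passed 1.2-fold downward, as 1.53% of measured genes did. Lum, which encodes lumican, and Thbs2 differed by 0.10 each, and Ogn by -0.074.

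The median of 7 measured collagen receptors was -0.12, from 5 lower and 2 higher genes. Ddr2, a tyrosine kinase receptor for fibrillar collagen, had 10.34 in the knockout pool and 10.58 in the wild type pool. The integrin genes Itga1 and Itga2 and the endocytic receptor gene Mrc2 differed by -0.13, -0.12 and -0.14. Degradation genes lay near 0, with 3 lower and 3 equal of 6 measured and Mmp2, a gelatinase, at -0.054. Under the other scalings the counts of higher and lower members came to 7 to 8 and 10 to 11 for modifying enzymes, 3 and 4 for proteases and cross-linking, 6 and 3 for fibril-binding genes, 3 and 4 for receptors, and 3 to 4 and 2 to 3 for degradation.

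**Figure D4:**
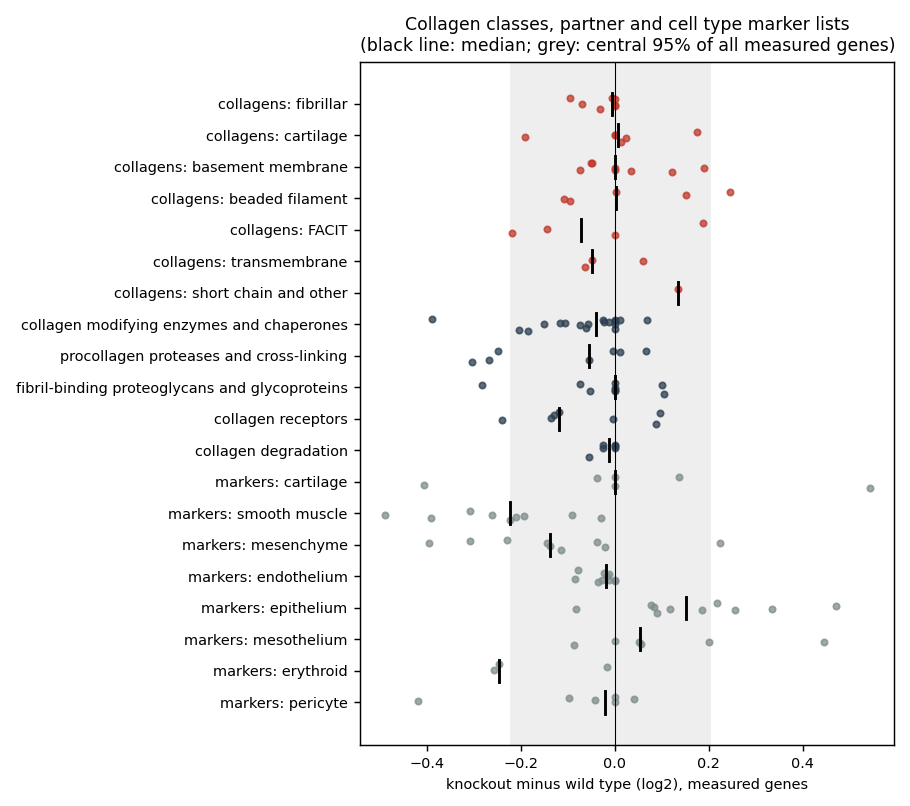
Knockout minus wild type difference (log2) of measured genes in each collagen class (red), partner list (dark) and cell type marker list (grey), with a black line at each median and grey shading over the central 95% of all measured genes. Collagen medians sit near 0, between those of smooth muscle (-0.22) and mesenchyme (-0.14) markers on the lower side and epithelial markers (0.15) on the higher side.

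Markers of smooth muscle and mesenchyme had lower medians than the fibrillar collagens. The fibrillar median was -0.0067 with 3 exact ties among 7 measured genes, and -0.051 without the ties. The marker lists were chosen with earlier results of these data known, so their counts are not independent of the data. All 9 measured smooth muscle markers were lower, against 47% of all measured genes and 55.1% in the upper tertile of level. Their median was -0.22, and among them were Synpo2 (-0.49), Myocd (-0.39), Cnn1 (-0.31) and Myh11 (-0.26). The 9 measured mesenchyme markers had a median of -0.14. Of these, 8 were lower and Prrx1 (0.22) was higher, and Foxf1, Wnt2 and Meox2 differed by -0.40, -0.31 and -0.23. Summed over all 10 markers of each list, those under the level limit included, linear levels were 17269 in the knockout pool and 19122 in the wild type pool for smooth muscle, and 18305 in the knockout pool and 20715 in the wild type pool for mesenchyme. The linear level summed over the 8 fibrillar collagens was 8292 in the knockout pool and 8579 in the wild type pool. The ratios of these sums, knockout over wild type, were 0.903 for smooth muscle, 0.884 for mesenchyme and 0.967 for fibrillar collagens. Bright genes weigh most in such sums, so the ratios do not describe the lists evenly. Foxf1, the brightest mesenchyme marker, had 12.26 in the knockout pool and 12.65 in the wild type pool. The lowest log2 level of any of these markers was 7.23 for smooth muscle and 7.02 for mesenchyme, the same on both arrays. The part of these cells in the collagen values was not tested.

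Markers of pericytes, mesothelium and red cells were also read. Of 6 measured pericyte markers 3 were lower, 1 higher and 2 equal, with Rgs5 at -0.42 and Pdgfrb at -0.097. Over all measured genes 47% were lower and 25.6% higher. Mesothelial markers had 4 higher, 1 lower and 1 equal. Krt19 was at 0.45 and Bnc1 at 0.20, while Lrrn4 was at 0.055 and Upk3b at -0.086. All 3 measured erythroid markers were lower as deposited, with Slc4a1 at -0.26, but 2 of 3 under quantile and loess scaling.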

How the data were processed

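Gene expression in E13.5 mouse lung was measured on Affymetrix arrays from biotin-labelled RNA, per the labels' protocols, with 1 array of RNA pooled from 3 samples in each group. The authors deposited a single value for each of 35557 probe sets on each array. These deposited values were taken as log2 expression from their range (2.69 to 14.4 on the knockout array, 2.72 to 14.4 on the wild type array). The log base, summary method and normalization are not given in the sources used here, and the number of arrays limits the precision. Platform annotation gave 1 symbol for 21789 probe sets, several for 1621 and none for 12147. All 44 collagens matched RefSeq's gene table (GRCm38.p6), used for chromosomes and gene order. Promoter motifs were counted in the first listed window of each gene, leaving out chromosome 18.

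Values were used as deposited, with a level limit at each array's median and thresholds of 1.1-fold and 1.2-fold. No p-value or SD was computed. Structural classes, partner lists and markers came from textbook roles, and each gene had 1 class. Members and lists were chosen with earlier results of these data known. Named genes were Etv4, Etv5, Xist, every measured collagen, and the 4 measured genes of largest absolute difference in each list. Collagens under the level limit were to be named only at 1.2-fold, which none reached. All 10 are named here, outside that rule, to account for every member. Not every such gene of the marker lists is printed. Alternatives were equal array medians, quantile and loess scaling (span 0.3), the mean over probe sets, other level limits, a floor and other thresholds. The steps were tested on simulated data. Python 3.11.15, numpy 2.4.6, pandas 2.3.3 and statsmodels 0.14.6 were used.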

Additional observations from a re-analysis of the deposited data

How the results depend on the processing

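No paired analysis was possible because each group has 1 array, and for the same reason no array could be left out. Changes of a class median by 0.043 or more, the median gap between probe sets of 1 gene, are given first. That gap is a spread of single genes and tests no median. With the level limit at the 75th percentile, the medians were -0.060 for all collagens, -0.051 for fibrillar, -0.049 for basement membrane, -0.096 for beaded filament and -0.22 for FACIT types, with fewer genes left, and no cartilage or transmembrane member remained. With no limit the beaded filament median was -0.040 and the FACIT median 0.0097, and with the mean over probe sets the beaded filament median was -0.046. Leaving out genes with exactly equal values, an alternative chosen after seeing the data, gave -0.051 for fibrillar and -0.14 for FACIT types. The counts of 0 higher and 0 lower collagens at 1.2-fold were 5 and 3 at 1.1-fold and 0 in every other planned setting. With the mean over probe sets, Col6a5 fell under the level limit and was left out of that count. Equal medians, quantile and loess scaling shifted the median of measured genes by 0.015 to 0.017. They turned the fibrillar median from -0.0067 to between 0.0065 and 0.011, and the basement membrane median, 0 as deposited and -0.025 without X-linked genes, to between 0.015 and 0.021. The 34 measured collagens then had 21 higher and 13 lower, against 12 and 14 as deposited, while the share of all measured genes that were lower moved to between 37.2% and 39.3%, from 47%. Single measured collagens moved by up to 0.031, so signs of smaller values carry no direction. Dim signal limits the higher values of Col6a5, Col4a6 and Col20a1, which lay within 0.043 of the level limit.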
